A study of Mus musculus with 30 samples.

Results

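Voltage-gated calcium and sodium channels are the proteins through which a change in membrane voltage becomes a current and, for calcium, a chemical signal. The 29 mouse genes described here encode 9 calcium channel pores, 8 calcium channel auxiliary subunits, 9 sodium channel pores and 3 sodium channel beta subunits. Their open chromatin was taken as the regions of an ATAC-seq peak table, on genome build GRCm38, that overlap the RefSeq body of a member extended by 10 kb on both sides. This gave 1653 of 257149 regions, or 0.643% of the table, of which 1164 belonged to pore genes and 489 to auxiliary genes. All 1653 passed the filter on low counts, 47 of them also overlapped another protein-coding gene, 112 lay outside the body of any member, and 7 were shared by Scn2b and Scn4b.

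ATAC-seq measures how readily a transposase cuts chromatin, and therefore which stretches of DNA are accessible. Each library held nuclei of 1 ventral hippocampus, and the labels name 4 groups of mice, of both sexes. Mice of the 10daysChronicRestraint groups had undergone tube restraint on each of 10 days, mice of the Handling groups had only been lifted as for restraint, and all were then housed singly for 24 h. The 0 min groups met no further restraint and came from the home cage, and the 45 min groups were sampled 45 min after 1 further restraint had begun. The groups held 8 Handling 0 min, 7 Handling 45 min, 8 chronic restraint 0 min and 7 chronic restraint 45 min libraries, and each of 4 batches held all groups. The labels used here give no strain or age. The handled mice at 45 min met restraint for the first time, while the chronically restrained mice at 45 min met it again, which is the contrast that a study of stress habituation rests on.

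In neurons the pore-forming subunit of a calcium channel carries the voltage sensor and the selectivity for calcium, while alpha2delta and beta subunits act on its trafficking to the membrane and on its gating. P/Q-type and N-type channels admit the calcium that triggers transmitter release, L-type channels couple depolarization of the soma and dendrites to gene expression, and T-type channels open near the resting potential and favour burst firing. Sodium channel pores carry the rising phase of the action potential, and their beta subunits adjust gating and bind adhesion molecules.

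Depth ranged from 26104576 to 55294838 counts per library, and the member regions took between 0.5999% and 0.671% of a library's counts. A member peak had a median width of 626 bp and a median of 64.6 counts per library, against 561 bp and 58.97 counts over all tested peaks. Marker genes fitted the labelled tissue in part. Of 6 excitatory neuron markers, 5 had a peak within 1 kb of an end of the gene, with Slc17a7, the vesicular glutamate transporter of hippocampal principal neurons, highest at 175 CPM (counts scaled to a common library total). Of 6 inhibitory neuron markers 4 had such a peak, and Sst and Vip had none. All 5 oligodendrocyte markers, all 5 microglia markers and 4 of 5 astrocyte markers had one, so the libraries hold several cell types. Of 3 choroid plexus genes, Ttr and Folr1 had none and Kl had one at 5.19 CPM. All 4 markers of neighbouring regions (Drd1, Drd2, Tcf7l2 and Lef1) had one, at 1.49 to 4.07 CPM. In such bulk tissue, fewer cells of a type and less accessibility per cell cannot be told apart. One Handling 0 min library, of animal 45, stood apart: the most covered 1% of peaks held 21.5% of its counts, against 20.0% to 21.3% in the other 29 libraries, and it was the highest of its group at the start peaks of many members. Several results in which it stands out are given with and without it, though not all.

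The genes differed widely in how much of their length was open, and the next sentences describe this landscape before any comparison. Among calcium pores, Cacna1c, the L-type pore of neurons and heart, held 271 peaks, Cacna1e, the R-type pore, 204, Cacna1d, the other neuronal L-type pore, 168, and Cacna1a, the P/Q-type pore, 126. Peaks covered 39.3% of the Cacna1c window and 61.7% of the Cacna1a window. The T-type pores Cacna1g and Cacna1h had only 25 and 13 peaks, but these were wide and covered 80.1% and 88.0% of their windows. Cacna1s, the L-type pore of skeletal muscle, held 37 peaks over 52.4% of its window. Among auxiliary genes, Cacna2d3, the longest member at 818 kb, held 141 peaks over 10.7% of its window, and Cacna2d1, the main binding site of gabapentin, held 47 peaks over 5.28%. Cacnb1, the beta subunit best known from skeletal muscle, lay almost wholly inside 5 wide peaks that covered 98.6% of its window and 4 of which also overlapped other genes.

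Sodium channel pores split in another way. Scn8a, the pore concentrated at the axon initial segment and nodes, had 109 peaks over 68.1% of its window. Scn1a, the pore of fast-spiking interneurons, Scn2a, a pore of excitatory axons, and Scn3a, which is most used before birth, had 15, 26 and 16 peaks and were covered over 4.28%, 11.7% and 6.81%. Scn9a, Scn10a and Scn11a serve mainly peripheral sensory neurons and had 5, 1 and 1 peaks, Scn7a, a sodium sensor related to these pores, had 1, and Scn4a, the skeletal muscle pore, had 6. The single peak of Scn10a reached 0.531 CPM, that of Scn11a 1.31 CPM and that of Scn7a 1.495 CPM, and none of these 3 genes, nor Scn4a, had a peak within 1 kb of an annotated start. The beta genes Scn2b, Scn3b and Scn4b are short and had 18, 16 and 10 peaks.

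**Figure D1:**
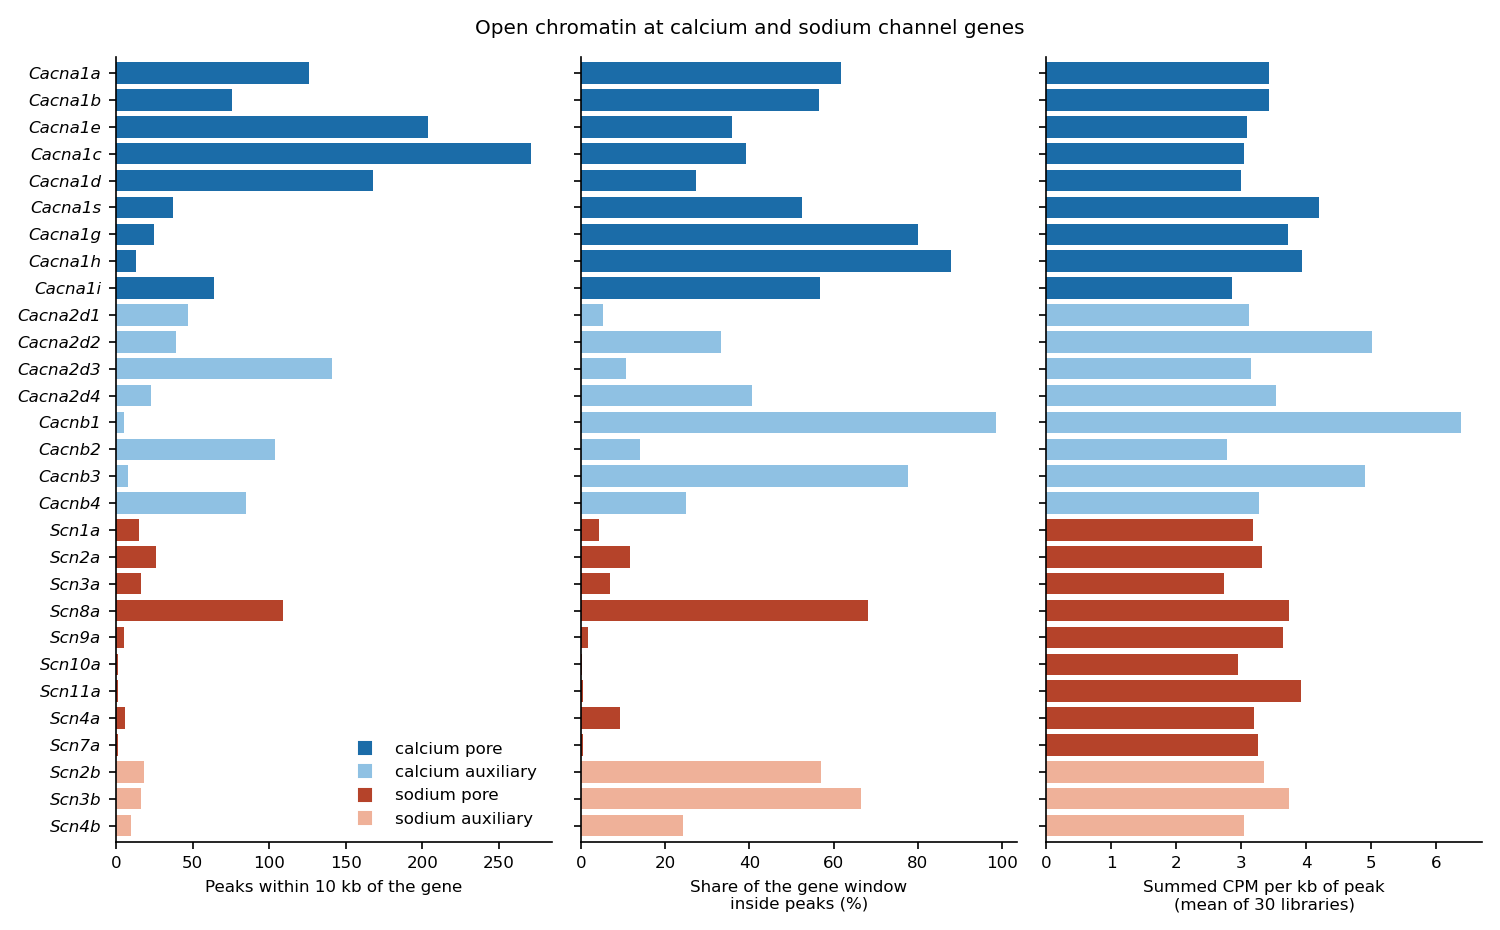
Peaks per gene window (left), share of the window inside peaks in percent (middle) and summed CPM per kb of peak (right, mean of 30 libraries) for the 29 genes, coloured by ion and subunit class. Cacna1c has the most peaks (271), Cacnb1 the most covered window (98.6%), and Scn7a, Scn10a and Scn11a a single peak each.

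RefSeq promoter sequences on GRCm38.p6 were matched for 23 of the 29 genes, with 33 annotated starts, and the 250 bases before each start were read from them. The following 5 are shown because they span the contrast between starts in a wide open peak, a start in a narrow peak, and a start with no peak. They are written 5′ to 3′ on the strand of the gene, with CpG dinucleotides in capitals. The CpG-rich start of Cacna1c at chr6:119108496-119108745 (minus strand) has 48 CpG and lies in a peak of 7123 bp with 40.6 ± 2.75 CPM (SD, n = 30 libraries). An internal start of the same gene at chr6:118757975-118758224 (minus strand) has 5 CpG and lies in a peak of 1378 bp with 3.70 ± 0.568 CPM. The Scn8a start at chr15:100870395-100870644 (plus strand) has 30 CpG and lies in a peak of 4795 bp with 31.7 ± 2.63 CPM. The Scn2b start at chr9:45117626-45117875 (plus strand) has 1 CpG and yet lies in a peak of 6123 bp with 28.4 ± 1.78 CPM. The Scn10a start at chr9:119719033-119719282 (minus strand) has 8 CpG and no peak within 1 kb.
Cacna1c CpG-rich start: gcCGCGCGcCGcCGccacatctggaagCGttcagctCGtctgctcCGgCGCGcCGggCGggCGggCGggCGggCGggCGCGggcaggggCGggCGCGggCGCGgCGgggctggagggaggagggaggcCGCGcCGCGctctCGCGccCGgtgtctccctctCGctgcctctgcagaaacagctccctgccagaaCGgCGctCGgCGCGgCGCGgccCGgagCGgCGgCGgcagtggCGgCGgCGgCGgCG
Cacna1c internal start: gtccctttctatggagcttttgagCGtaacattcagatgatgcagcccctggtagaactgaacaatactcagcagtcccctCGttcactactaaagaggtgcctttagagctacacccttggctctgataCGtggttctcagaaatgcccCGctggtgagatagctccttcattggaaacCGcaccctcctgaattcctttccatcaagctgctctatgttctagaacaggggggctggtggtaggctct
Scn8a start: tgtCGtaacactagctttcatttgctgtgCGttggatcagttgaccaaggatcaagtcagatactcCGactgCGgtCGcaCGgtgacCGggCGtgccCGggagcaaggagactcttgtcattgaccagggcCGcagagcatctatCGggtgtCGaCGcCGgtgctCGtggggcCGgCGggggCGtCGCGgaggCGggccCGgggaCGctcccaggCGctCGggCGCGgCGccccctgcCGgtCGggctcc
Scn2b start: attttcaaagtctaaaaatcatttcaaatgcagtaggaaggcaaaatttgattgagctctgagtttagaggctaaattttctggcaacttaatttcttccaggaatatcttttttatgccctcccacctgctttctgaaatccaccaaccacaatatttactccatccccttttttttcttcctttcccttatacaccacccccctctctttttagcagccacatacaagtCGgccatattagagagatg
Scn10a start: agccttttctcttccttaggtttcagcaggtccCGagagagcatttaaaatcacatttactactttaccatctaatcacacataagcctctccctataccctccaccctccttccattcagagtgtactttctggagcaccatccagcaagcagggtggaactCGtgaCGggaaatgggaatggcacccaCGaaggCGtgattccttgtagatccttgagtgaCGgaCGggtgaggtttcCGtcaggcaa

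Over all 33 starts, the 13 with 20 or more CpG in these 250 bases all lay inside a peak, with a median of 14.1 CPM. Of the 19 with fewer than 10 CpG, 13 had a peak within 1 kb, and their median, counting absent peaks as 0, was 4.26 CPM. The remaining start, of the T-type pore Cacna1i, has 16 CpG and 23.9 CPM. Across starts, CpG number and CPM had a Spearman rho of 0.27, a description over 33 starts of which several share a peak or a gene. Per kb of peak, the medians were 5.53 CPM for starts with 20 or more CpG and 3.48 for those with fewer than 10. The second median again counts starts without a peak as 0, so it is not a level of peaks alone. The Scn2b start, with 1 CpG, lies in a peak of 28.4 CPM, or 4.64 CPM per kb. Starts with 20 or more CpG made up 39.4% of the member starts and 17.9% of the 32851 promoters in the RefSeq table. The distal annotated starts of Cacna1c and Cacna1d, and the starts of Scn4a, Scn7a, Scn10a and Scn11a, had no peak within 1 kb.

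Short motifs were searched on both strands of the 250 bases before and 50 bases after each start, as letters only. The GC box GGGCGG, whose letters overlap the CpG count, occurred at 13 of 33 member starts (39.4%) and in 35.7% of all promoters. The TATA box TATAAA occurred at 2 member starts, of Cacna1d and Scn2a (6.06%), and in 13.6% of all promoters. The cAMP response element TGACGTCA, the AP-1 element TGANTCA and a glucocorticoid response element occurred at 0 member starts, and in 1.79%, 7.81% and 0.475% of all promoters. The absence says only that these letters are not in these windows.

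Gene-start peaks gave a first view of the level of each gene. A peak within 1 kb of an annotated start was found for 19 genes. For 6 genes without a promoter entry (Cacna1a, Cacna1g, Cacna1h, Cacna2d4, Scn3a and Scn3b) the most covered peak at either end of the gene was taken instead, since the gene table gives no strand. Such a peak may lie at the end where transcription stops, so its rank beside start peaks is uncertain. Because peaks differ in width, levels are compared between genes as CPM per kb of peak. Among calcium pores this was highest at an end of Cacna1a, 9.81 CPM per kb, then 6.56 at the start of Cacna1b, the N-type pore, 5.70 at Cacna1c, 5.03 at Cacna1g and 4.98 at Cacna1d, and lowest at Cacna1s, with 4.22. The alpha2delta genes ranged from 3.34 CPM per kb at Cacna2d2 to 6.66 at Cacna2d3, and the calcium beta genes from 4.48 at Cacnb2 to 6.08 at Cacnb1. Sodium pores ranged from 2.52 at Scn1a and 2.54 at Scn3a to 6.62 at Scn8a, and the beta genes from 3.06 at Scn4b to 7.58 at Scn3b. The start peak of Cacnb1 was 23725 bp wide and also covered Rpl19 and Stac2, and that of Cacnb3, 22959 bp wide, also covered Ddx23. That of Cacna1s, 6833 bp wide, also overlapped Ascl5. These levels are therefore not those of the channel gene alone.

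Between the 4 groups these start peaks overlapped. Cacna1b had 56.1 ± 4.04 CPM in Handling 0 min (SD, n = 8), 58.3 ± 3.24 in Handling 45 min (n = 7), 56.5 ± 2.19 in chronic restraint 0 min (n = 8) and 59.2 ± 3.73 in chronic restraint 45 min (n = 7). Scn8a had 31.8 ± 3.65, 32.3 ± 2.65, 31.5 ± 1.98 and 31.5 ± 2.43 CPM in the same order. Cacna2d3, an alpha2delta gene, had 26.2 ± 5.15, 26.7 ± 2.16, 26.2 ± 1.48 and 26.6 ± 2.25 CPM. Without library 45 the Handling 0 min values were 54.9 ± 2.64 CPM for Cacna1b, 30.7 ± 1.94 for Scn8a and 24.4 ± 1.82 for Cacna2d3 (SD, n = 7). The 3 peaks with an unadjusted p under 0.05 in the averaged acute comparison had the higher means at 45 min in both histories. At an end of Cacna1h the means were 69.1 ± 4.63, 73.6 ± 4.00, 70.9 ± 3.10 and 75.0 ± 3.43 CPM in the same group order, and 67.95 ± 3.50 in Handling 0 min without library 45, with a log2 change of 0.088 ± 0.034 (SE, edgeR adjusted p = 0.491). The Cacna1d start had 10.6 ± 0.919, 10.99 ± 1.19, 10.3 ± 0.693 and 11.4 ± 0.910 CPM, or 10.45 ± 0.914 in Handling 0 min without library 45, with a change of 0.104 ± 0.049 (adjusted p = 0.656). The Cacnb2 start changed by 0.111 ± 0.046 (adjusted p = 0.55). Within each of the 4 batches all 3 changes were above 0, from 0.01 to 0.22. The same libraries selected these 3 peaks, so the shared sign is no separate support. Of the 25 peaks, 0 passed the test (edgeR quasi-likelihood F-test, Benjamini-Hochberg adjusted p under 0.05 over all tested peaks) in any of the 8 comparisons, where it called between 0% and 0.116% of all tested peaks. For the averaged acute comparison 3 of the 25 had an unadjusted p under 0.05, beside 7.17% of all tested peaks, the smallest adjusted p was 0.491 and the log2 changes ran from -0.07 to 0.17 (DESeq2 also made 0 calls among the members). For 24 of the 25 the 95% interval of that change lay within 1.25-fold.

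**Figure D2:**
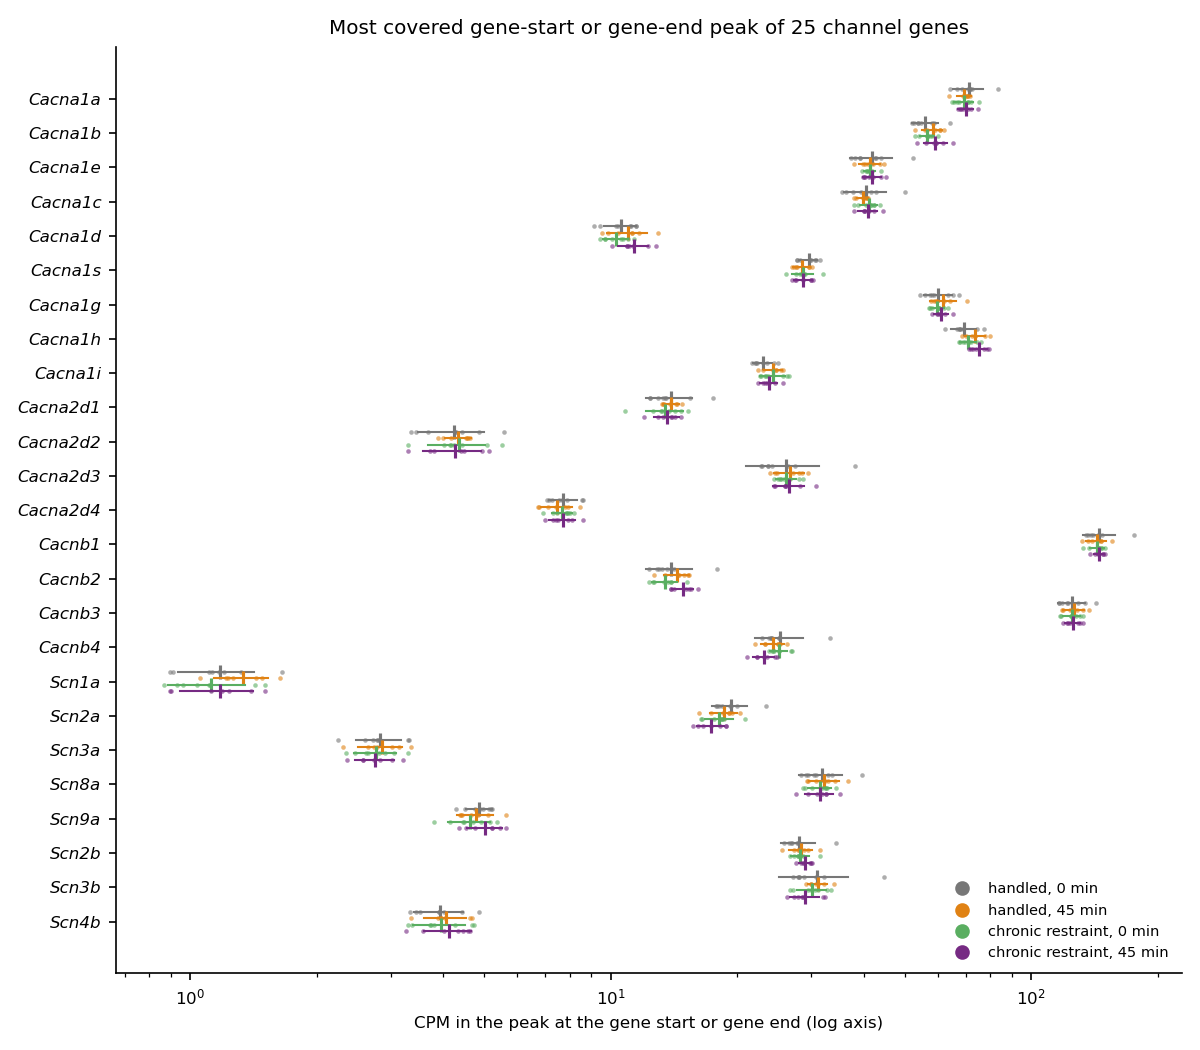
CPM (log axis) of the most covered gene-start peak, or gene-end peak where no promoter entry was matched, of 25 genes in the 4 groups; points are libraries, vertical ticks are group means and bars are 1 SD. The group means of a gene lie close together, and library 45 of Handling 0 min is the grey point to the right of its group at Cacnb1 (175 CPM) and Cacna2d3 (38.2 CPM).

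The acute comparison asked whether 45 min of restraint changed accessibility. In the average over both histories, 0 of 1653 member peaks were called, where the test called 299 of all 257143 tested peaks (0.116%), of which 188 were higher (0.0731%) and 111 lower (0.0432%) at 45 min. An unadjusted p under 0.05 was found for 113 member peaks, or 6.84%, against 7.17% of all tested peaks, the smallest adjusted p was 0.154, and DESeq2 also called 0 members, although for 525 of them it gave no adjusted p. In handled mice 0 members were called (0.0109% of all peaks), and 81 (4.9%, against 5.52% of all) had an unadjusted p under 0.05. In chronically restrained mice 0 were called (0.00272% of all peaks), and 65 (3.93%, against 4.73% of all) had such a p. The members' median log2 change in the averaged comparison was 0.0084, with 53.4% above 0, beside -0.0025 and 49% over all tested peaks. The 95% interval of the averaged change lay within 1.5-fold for 98.7% of member peaks and within 1.25-fold for 73.1%.

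Neither subunit class held a called peak. Pore peaks had a median acute log2 change of 0.0128 with 55.7% above 0, and auxiliary peaks -0.0045 with 47.9% above 0. By ion, the order of the classes differed. The median was 0.0141 for calcium pore and -0.0074 for the 452 calcium auxiliary peaks. For sodium it was 0.0085 for pore and 0.0334 for the 37 auxiliary peaks. Each library's median deviation was also fitted with the same terms, which gave 0.0161 ± 0.0138 (SE, 30 libraries) for pore and 0 ± 0.0064 for auxiliary peaks. Within batches the pore median was 0.0206, 0.0263, -0.0109 and 0.0193 in batches 1 to 4, and the auxiliary median was -0.0017, 0.0033, 0.0071 and -0.0226, so neither class kept 1 sign over the batches. Among marker lists in the same comparison, the 95 oligodendrocyte marker peaks had a median of 0.0295 with 64.2% above 0 and 1 called higher (edgeR adjusted p = 0.019), and the 53 microglia marker peaks had a median of 0.0377 with 56.6% above 0 and 0 called. The 26 peaks of neighbouring-region markers had a median of -0.0409 with 42.3% above 0. The 37 of inhibitory neuron markers had 0.0228 with 67.6% above 0. The remaining lists lay between -0.0213 (choroid plexus) and 0.0117 (oligodendrocyte precursors). Their part in the channel values was not tested.

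**Figure D3:**
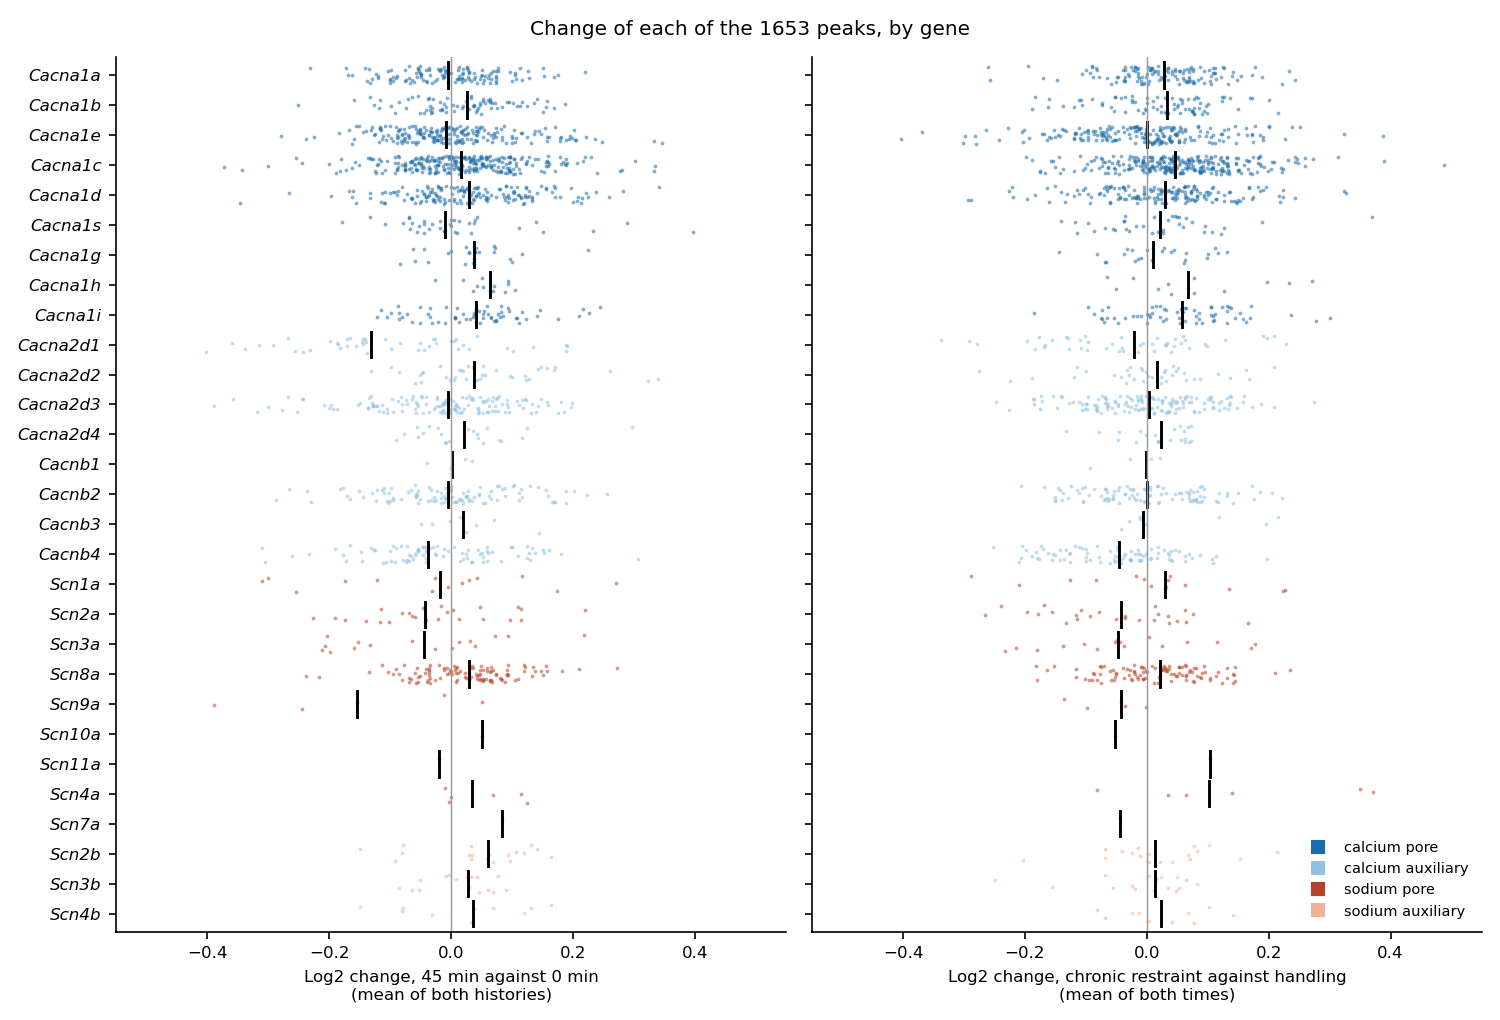
Fitted log2 change of every member peak, by gene, for 45 min against 0 min (left) and chronic restraint against handling (right), each averaged over the other factor; points are peaks, black bars are the median of a gene. Cacna2d1 and Scn9a have the lowest acute medians (-0.13 and -0.15), and Cacna1c peaks lie mostly to the right in the chronic comparison (median 0.05).

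Among P/Q, N and R-type pores, the lowest unadjusted acute p belonged to a peak in the body of Cacna1a at chr8:84518784-84521285. It had 9.32 to 11.97 CPM in Handling 0 min (median 10.5), 8.57 to 9.58 in Handling 45 min (median 8.85), 8.30 to 10.9 in chronic restraint 0 min (median 9.10) and 7.62 to 8.75 in chronic restraint 45 min (median 8.30). Its 45 min libraries sat lower than the 0 min libraries of the same history on average, but the groups overlapped. The averaged log2 change was -0.17 ± 0.049 (SE), with an edgeR adjusted p of 0.17, and within batches 1 to 4 it was -0.21, -0.11, -0.13 and -0.26. Here and below, within-batch values of peaks and genes named for a small p come from the libraries that ranked them. They are no separate support. When each library's top-peak share (the percent of its counts that fell in the 1% of peaks with most coverage) was added as a covariate, the adjusted p was 0.0362, in a fit that called 0.687% of all peaks, and over 14 fits it ran from 0.0362 to 1. Summed over its 126 peaks, Cacna1a changed by 0.005 (95% interval -0.04 to 0.05), and Cacna1e, summed over 204 peaks, by -0.001 (-0.039 to 0.036).

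The L-type pore Cacna1c (chr6:118587240-119197384) had 2 neighbouring peaks among the 5 smallest acute p-values of the set. One, at chr6:118756874-118758251, contains the internal start printed above. It had 2.56 to 3.97 CPM in Handling 0 min (median 3.16), 3.28 to 4.87 in Handling 45 min (median 4.08), 2.92 to 4.37 in chronic restraint 0 min (median 3.53) and 3.35 to 4.71 in chronic restraint 45 min (median 3.81). The libraries of handled mice were mostly higher at 45 min, with an overlap, and those of chronically restrained mice overlapped over most of their range. The log2 change was 0.36 ± 0.10 in handled mice (edgeR adjusted p = 0.412) and 0.10 ± 0.10 in chronically restrained mice (adjusted p = 1), and the test of the difference, the interaction, gave -0.25 ± 0.14 with an unadjusted p of 0.078 and an adjusted p of 1. Averaged over both histories it was 0.23 ± 0.071 (adjusted p = 0.266), and 0.16, 0.13, 0.28 and 0.37 within batches 1 to 4.

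The peak beside it, at chr6:118758393-118758917, had 0.840 to 1.22 CPM in Handling 0 min (median 1.03), 1.05 to 1.73 in Handling 45 min (median 1.47), 1.01 to 1.57 in chronic restraint 0 min (median 1.24) and 1.13 to 1.69 in chronic restraint 45 min (median 1.56). Again the 45 min libraries were mostly the higher ones and the groups overlapped. The averaged log2 change was 0.33 ± 0.098 (edgeR adjusted p = 0.215), and it was above 0 in each batch, at 0.16, 0.43, 0.38 and 0.26. At the CpG-rich start of the same gene, which had a mean of 40.6 CPM, the averaged change was -0.004 ± 0.038 (95% interval -0.079 to 0.072). Whether the internal and the CpG-rich start differ in their acute change was not tested.

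Cacna1d, the other L-type pore of neurons, had a peak in its body at chr14:30259647-30261022 that ranked second in handled mice. It had 1.91 to 3.82 CPM in Handling 0 min (median 2.69), 3.06 to 4.67 in Handling 45 min (median 3.33), 2.39 to 3.63 in chronic restraint 0 min (median 3.03) and 3.04 to 3.58 in chronic restraint 45 min (median 3.06). The handled groups overlapped, and the chronic restraint groups nearly coincided. The log2 change was 0.38 ± 0.11 in handled mice (edgeR adjusted p = 0.502) and 0.07 ± 0.11 in chronically restrained mice (adjusted p = 1), with an interaction of -0.30 ± 0.16 (adjusted p = 1). When males alone were fitted, another Cacna1d peak, at chr14:30341994-30343366, was called at 0.44 ± 0.094 (adjusted p = 0.0283). The difference of that change between sexes was not tested. Among T-type pores, 12 of 13 Cacna1h peaks, 45 of 64 Cacna1i peaks and 18 of 25 Cacna1g peaks had an acute change above 0, with medians of 0.06, 0.04 and 0.04.

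Auxiliary calcium subunits held both the smallest acute p of a single peak and that of a whole gene. Cacna2d1 (chr5:15934264-16374511) encodes alpha2delta-1, which carries calcium channels to presynaptic terminals. Its 47 peaks summed to 71.9 to 92.7 CPM in Handling 0 min (median 76.8), 70.0 to 78.1 in Handling 45 min (median 74.8), 72.6 to 83.4 in chronic restraint 0 min (median 77.3) and 67.7 to 76.4 in chronic restraint 45 min (median 72.4). The 45 min groups had the lower medians, and all groups overlapped. The edgeR fit of counts summed per gene gave -0.08 ± 0.025 (95% interval -0.132 to -0.032, adjusted p = 0.0947). The same test called 1.12% of 34935 genes and 0 of 29 members. Of the members 4 had an unadjusted p under 0.05, beside 12.6% of all genes. On summed counts edgeR also called 0 of 29 members in handled mice (0.109% of all genes) and 0 of 29 in chronically restrained mice (0.0401% of all genes). There 3 and 1 members had an unadjusted p under 0.05, beside 7.8% and 6.52% of all genes. The Cacna2d1 changes within batches were -0.10, -0.06, -0.01 and -0.20, and the adjusted p over 8 fits ran from 0.0686 to 0.382. The value farthest from 0 is that of batch 4, the smallest batch, which also holds library 45. Of the 47 peaks 12, or 25.5%, had an acute change above 0, and their median was -0.13, while the gene-start peak changed by 0.019 ± 0.048. In males alone, a Cacna2d1 peak at chr5:16013566-16014164 was called at -0.65 ± 0.14 (adjusted p = 0.0292), and the difference between sexes was not tested.

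The other alpha2delta genes did not share this pattern of counts. Cacna2d2, the subunit affected in the ducky mouse, had 28 of 39 peaks above 0 and a summed log2 change of 0.04 ± 0.013 (edgeR adjusted p = 0.18). Cacna2d3 had 65 of 141 peaks above 0 and a summed change of -0.001 ± 0.015. A peak in its body at chr14:29424986-29425597 had 1.49 to 3.40 CPM in Handling 0 min (median 2.11), 1.01 to 2.30 in Handling 45 min (median 1.54), 1.72 to 2.27 in chronic restraint 0 min (median 2.02) and 1.22 to 2.41 in chronic restraint 45 min (median 1.46). The 45 min medians were the lower ones and the groups overlapped, with an averaged change of -0.36 ± 0.11 (adjusted p = 0.256). Cacna2d4, the subunit of photoreceptors, had 12 of 23 peaks above 0 and a summed change of 0.02 ± 0.019.

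Among calcium beta subunits, which bind the pore from inside the cell, Cacnb2 held the single peak with the smallest acute p, at chr2:14846602-14847557 in the gene body. It had 2.75 to 5.85 CPM in Handling 0 min (median 3.33), 2.69 to 3.30 in Handling 45 min (median 2.88), 2.64 to 4.11 in chronic restraint 0 min (median 3.32) and 2.07 to 3.22 in chronic restraint 45 min (median 2.75). The highest value came from library 45, the next highest of its group was 3.69, and the groups overlapped. The averaged log2 change was -0.29 ± 0.079 (edgeR adjusted p = 0.154), and -0.23 (adjusted p = 0.221) without library 45. Within batches it was -0.30, -0.35, -0.16 and -0.27. When the top-peak share entered the fit, this peak was called at -0.32 ± 0.074 (adjusted p = 0.0146), and over 14 fits the adjusted p ran from 0.0146 to 1. Summed over 104 peaks Cacnb2 changed by 0.006 ± 0.02, and its CpG-rich start peak had 13.9 ± 1.72, 14.4 ± 0.982, 13.5 ± 0.942 and 14.9 ± 0.865 CPM in Handling 0 min, Handling 45 min, chronic restraint 0 min and chronic restraint 45 min. Without library 45 the Handling 0 min value of this start peak was 13.3 ± 0.619 CPM (SD, n = 7).

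Sodium channel genes showed no called acute change either. Summed over their peaks, Scn2a changed by -0.05 ± 0.021 (edgeR adjusted p = 0.346), Scn3a by -0.06 ± 0.031 (0.444 as adjusted p), Scn8a by 0.04 ± 0.02 (adjusted p = 0.473) and Scn1a by 0.01 ± 0.034 (adjusted p = 0.912). Of their peaks, 9 of 26 in Scn2a, 7 of 16 in Scn3a, 70 of 109 in Scn8a and 6 of 15 in Scn1a lay above 0. The start peak of Scn1a was the least covered of the 25, with a mean of 47.4 counts per library, and its averaged change was 0.17 ± 0.10. Among beta subunits, Scn2b changed by 0.05 ± 0.024 (adjusted p = 0.432), Scn4b by 0.05 ± 0.033 (adjusted p = 0.615) and Scn3b by 0.009 ± 0.019 (adjusted p = 0.895), where Scn2b and Scn4b share 7 peaks. The intervals were widest for the genes with 1 peak: the acute change of Scn10a had a 95% interval from -0.261 to 0.378.

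**Figure D4:**
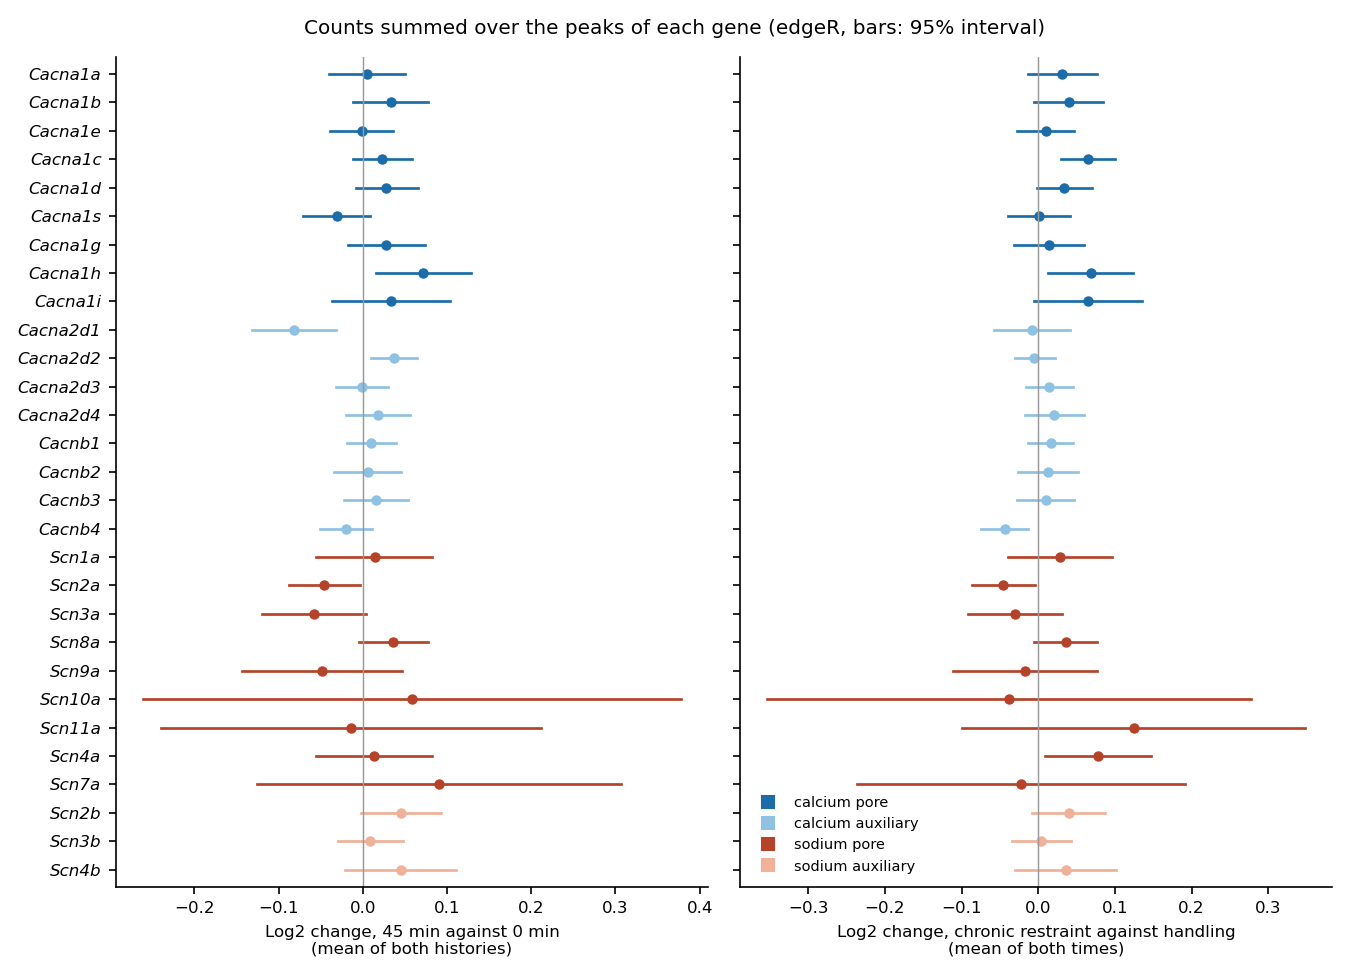
Log2 change of the counts summed over the peaks of each gene (points, edgeR fit) with 95% intervals (bars), for 45 min against 0 min (left) and chronic restraint against handling (right). Cacna2d1 lies lowest among the genes whose acute interval leaves out 0 (-0.08), Cacna1c has a chronic change of 0.06, and no gene passed the adjusted threshold.

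The chronic comparison asked what 10 days of daily restraint left behind. Averaged over both times, 0 of 1653 member peaks were called by edgeR and 0 by DESeq2, and edgeR called 0 of all tested peaks as well (0% of 257143). An unadjusted p under 0.05 was found for 101 member peaks, or 6.11%, against 5.44% of all, and the smallest adjusted p was 0.771. At 0 min and at 45 min 0 members were called by either tool, and edgeR called 0% of all tested peaks. An unadjusted p under 0.05 was found for 75 and 59 members, or 4.54% and 3.57%, against 4.60% and 3.78% of all. The members' median log2 change was 0.0192 with 57.9% above 0, beside -0.0049 and 48.0% over all tested peaks. Pore peaks had a median of 0.0275 and auxiliary peaks -0.0063, and the calcium pore peaks among them 0.0308, with 64.2% above 0. Calcium auxiliary peaks had a median of -0.0072, while sodium pore peaks had 0.0097 and sodium auxiliary peaks 0.0106. Fitted on each library's median, the pore change was 0.0269 ± 0.0137 and the auxiliary change -0.0094 ± 0.0064 (SE, 30 libraries). The pore median was 0.0279, 0.0415, 0.0165 and 0.0081 within batches 1 to 4. For calcium pores it was 0.0284, 0.0481, 0.0171 and 0.0144, and for sodium pores 0.0247, -0.0002, 0.0155 and -0.0291. The auxiliary median was 0.0061, -0.0059, -0.0059 and -0.0161, so sodium pore and auxiliary peaks did not keep 1 sign. Without library 45 the median of all pore peaks was 0.0252, and over 14 alternatives it ran from 0.0076 to 0.0585.

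The values of the marker lists in the same comparison stand beside this. The 95 peaks of the 5 oligodendrocyte markers had a median chronic change of -0.0364 with 26.3% above 0 and 0 called. Their summed level ran from 604 to 674 CPM in Handling 0 min, 635 to 666 in Handling 45 min, 600 to 642 in chronic restraint 0 min and 613 to 664 in chronic restraint 45 min, and no marker of that list was at 0. The 53 peaks of microglia markers had a median of -0.0151, the 165 peaks of excitatory neuron markers had a median of -0.01, and the 37 of inhibitory neuron markers -0.0118. The 26 peaks of neighbouring-region markers had a median of -0.0421 and the 24 of endothelial markers -0.035. The remaining lists lay between -0.0202 (oligodendrocyte precursors) and 0.0265 (choroid plexus). Their part in the channel values was not tested.

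By summed counts, Cacna1c had the smallest chronic p of the 29 genes, while the fitted changes of Scn11a (0.125 ± 0.11), Scn4a and Cacna1h lay farther from 0. Its 271 peaks summed to 719 to 777 CPM in Handling 0 min (median 737), 728 to 764 in Handling 45 min (median 747), 742 to 776 in chronic restraint 0 min (median 765) and 745 to 807 in chronic restraint 45 min (median 774). The chronic restraint groups had the higher medians at both times, and all groups overlapped. The edgeR fit gave 0.06 ± 0.018 (95% interval 0.029 to 0.10, unadjusted p = 0.00074, adjusted p = 0.327). In this comparison edgeR called 0% of all 34935 genes and 0 members. An unadjusted p under 0.05 was found for 5 members, beside 9.29% of all genes. Over 8 fits the Cacna1c change ran from 0.06 to 0.08 and its adjusted p from 0.25 to 0.997, and within batches it was 0.05, 0.07, 0.05 and 0.02. Of its peaks 201 of 271, or 74.2%, had a chronic change above 0. Cacnb4, the beta subunit mutated in the lethargic mouse, lay on the other side, with 24 of 85 peaks above 0 and a summed change of -0.04 ± 0.015 (adjusted p = 0.386). Scn2a was at -0.05 ± 0.021 (adjusted p = 0.507), Cacna1h at 0.07 ± 0.027 (adjusted p = 0.472) and Scn4a at 0.08 ± 0.034 (adjusted p = 0.492), these 3 with intervals that leave out 0 but no call.

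The smallest chronic p of a single member peak lay in Cacna1h, whose T-type channel is a target of hormones and redox signals. The peak at chr17:25387409-25391613 had 10.2 to 14.5 CPM in Handling 0 min (median 11.8), 11.1 to 13.3 in Handling 45 min (median 12.1), 12.2 to 14.5 in chronic restraint 0 min (median 13.0) and 12.5 to 17.0 in chronic restraint 45 min (median 13.99). The chronic restraint libraries were higher on average at both times, and the groups overlapped. The averaged log2 change was 0.20 ± 0.046 (edgeR unadjusted p = 4.9e-05, adjusted p = 0.771), and within batches it was 0.13, 0.27, 0.25 and 0.10. The next peak, at chr17:25385291-25387300, had medians of 5.95, 5.97, 6.24 and 7.02 CPM in the same group order, and a change of 0.23 ± 0.059 (adjusted p = 0.824) that was 0.15, 0.29, 0.31 and 0.14 within batches. Both lie inside the gene body, and over 14 fits the adjusted p of the first ran from 0.136 to 1. A Cacna1a peak at chr8:84625771-84627419 had medians of 3.58, 3.63, 4.15 and 4.36 CPM and a change of 0.23 ± 0.073 (adjusted p = 0.857), at 0.20, 0.21, 0.26 and 0.26 within batches.

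**Figure D5:**
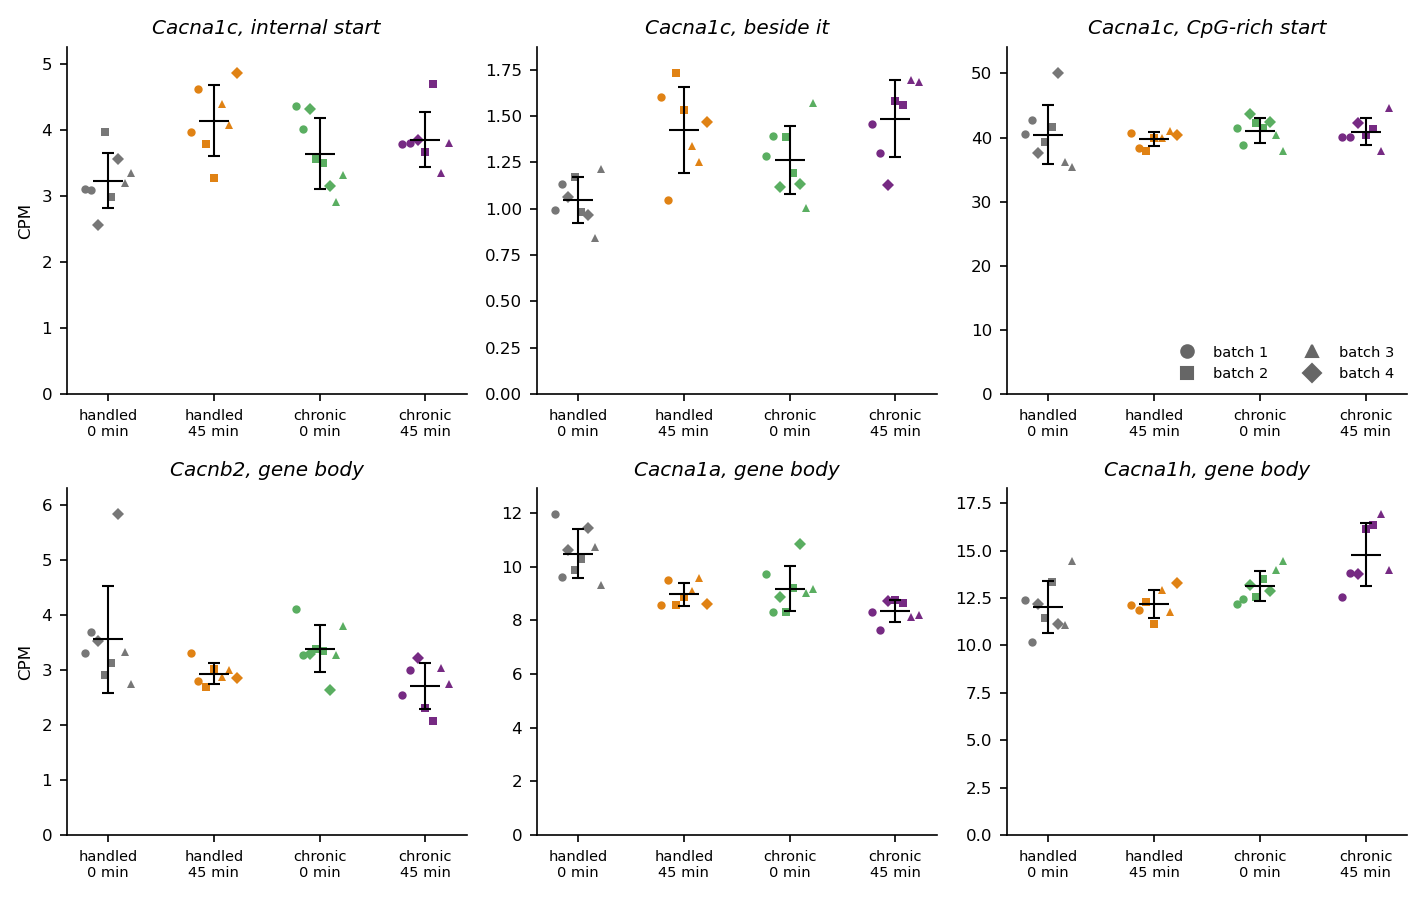
CPM of 6 member peaks in every library, by group; symbols mark the batch, black bars the group mean and 1 SD. The 45 min libraries sit mostly above the 0 min libraries at the internal Cacna1c start and beside it and mostly below at the Cacnb2 and Cacna1a peaks, the CpG-rich Cacna1c start stays near 40.6 CPM, and all groups overlap their neighbours.

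The interaction asked whether the acute change differed between histories, which is where habituation of chromatin would be seen. edgeR called 0 of 1653 members and 0 of all tested peaks (0%), DESeq2 called 0 members, and 30 members had an unadjusted p under 0.05, or 1.81%, against 3.03% of all. The peak with the smallest such p, in Cacna1c at chr6:118776353-118778472, had 5.64 to 7.53 CPM in Handling 0 min (median 6.197), 4.92 to 6.46 in Handling 45 min (median 5.45), 4.85 to 6.69 in chronic restraint 0 min (median 5.63) and 5.26 to 7.81 in chronic restraint 45 min (median 6.24). Handled mice had the lower median at 45 min and chronically restrained mice the higher, with overlap in both, and the interaction was 0.39 ± 0.12 (adjusted p = 1). The acute change in chronically restrained mice that lay farthest from 0 was in a Cacna2d3 peak at chr14:29556265-29556429, at -0.90 ± 0.24 (adjusted p = 0.597). That peak is only 165 bp wide with 16.4 counts per library, at 0.232 to 0.713 CPM in chronic restraint 0 min and 0.161 to 0.440 in chronic restraint 45 min. The 95% interval of the interaction lay within 1.5-fold for 65.9% of member peaks, so this comparison is the least precise of those made.

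Between the sexes, edgeR called 0 of 1653 members, all of which are autosomal, and 0.035% of all tested peaks. DESeq2 called 0 members. With edgeR 74 members, or 4.48%, had an unadjusted p under 0.05, against 5.37% of all tested peaks. The median change, females minus males, was -0.0064 for pore and 0.01 for auxiliary peaks, beside 0.0044 over all tested peaks. The smallest p was that of a Cacna1c peak at chr6:119049664-119050813, with -0.24 ± 0.078 (adjusted p = 0.761). On summed counts edgeR called 0 of 29 members and 0.306% of all genes. Cacna1d and Scn1a, at -0.04 ± 0.018 and -0.07 ± 0.034, had unadjusted p-values under 0.05, as did 6.67% of all genes.

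The genes of proteins that work with these channels were counted in the same way. The list held 28 genes for anchoring at the axon initial segment (such as Ank3 and Nfasc), for release sites (Rims1, Rims2, Rimbp2), for calcium sensing (such as Camk2b) and for related subunits (Cacng2, Cacng8), with 1228 peaks. edgeR called 0 of these higher and 0 lower in all 8 comparisons, beside between 0% and 0.116% of all tested peaks. Their median was -0.003 for the averaged acute change, with 48.8% above 0 and a smallest adjusted p of 0.141, and -0.0036 for the averaged chronic change, with 47.6% above 0.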

How the data were processed

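The authors deposited raw counts, as whole numbers per region, for the same regions in each of the 30 libraries. Per the submitters' processing notes, the build was GRCm38, and the tools named were Genrich 0.6.1, Picard, Bowtie2 and Trimmomatic. How regions of different libraries were joined, which tool counted them, and whether reads, fragments or insertions were counted are not given in the sources used here, so CPM compares libraries at 1 region but has no absolute scale. Another 2 columns could be matched to none of the samples and were not used. Tn5 insertion also depends on sequence, and this was not corrected.

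Counts were fitted in edgeR 4.0.16 (R 4.3.3) over all regions left by filterByExpr (257143), with TMM scaling, group, sex and batch as terms and quasi-likelihood F-tests, adjusted by Benjamini-Hochberg over all tested regions and called under 0.05. Counts summed per gene, over the gene extended by 10 kb, were fitted in the same way. Each library is 1 animal, so p-values measure the spread between animals. DESeq2 1.42.0 and the other settings under sensitivity were alternatives. On simulated counts with known changes the fit was tested before use. Regions were joined to RefSeq genes (GRCm38.p6) with GenomicRanges 1.54.1. CPM is edgeR's count scaled to the TMM-adjusted library total, ± is the SD over libraries for levels and the SE of the fitted coefficient for log2 changes, and 95% intervals use the degrees of freedom implied by the F-tests. Class medians were also fitted by least squares on each library's median deviation from the peak means, with the same terms. Within-batch values are differences of mean log2 CPM with a prior count of 2, or of log2 summed CPM for genes. They carry no sex term. Those of batch 4 rest at 45 min on animals 71 and 23 and include library 45 at 0 min. For peaks and genes named for a small p they use the libraries that ranked them.

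Named are, for each gene, the most covered peak at its start (or end) and the peak with the smallest acute p, and in each comparison the 5 members with the smallest p; of these the text prints those that matter for a subunit class. The 2 male-only peaks are named because they were called in that alternative, and the Cacna1c CpG-rich start is printed with the internal one. Members, subunit classes, partner and marker lists and tests were chosen with earlier results of these data known.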

Additional observations from a re-analysis of the deposited data

Results flagged for a closer look

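In groups of 7 or 8 libraries, a library was marked where its gap to the nearest other, divided by the range of the group, passed Dixon's critical value. This occurred in 16 of 136 groups of values, and chance marks about 1 in 20. Of the 16, 12 were library 45 of Handling 0 min. It was the highest of its group at the start peaks of Cacnb1 (175 CPM, next 147), Cacna1e (52.3, next 43.9), Scn8a (39.6, next 33.5), Scn2b (34.3, next 28.0), Cacna2d3 (38.2, next 27.5), Cacnb4 (33.2, next 25.2), Scn2a (23.5, next 20.0) and Cacnb2 (17.9, next 14.1), and at the end peaks of Cacna1a (83.6, next 72.2) and Scn3b (44.7, next 32.2). It was the lowest in the share of library counts held by all calcium pore peaks (0.336%, next 0.365%) and by all pore peaks (0.396%, next 0.428%). The shares are of raw counts, whereas CPM also carries this library's TMM factor of 0.875, so the high and the low values are not on 1 scale. The most covered 1% of peaks held 21.5% of its counts. Without this library 0 member peaks were called in each comparison, as with it.

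The other 4 marked values were spread over genes and groups. At the end peak of Cacna1a, library 27 of Handling 45 min was lowest (63.8 CPM, next 68.8). At the start peak of Scn2b, library 51 of chronic restraint 0 min was highest (31.4 CPM, next 28.7). The share of counts in auxiliary peaks was highest in library 20 of Handling 0 min (0.207%, next 0.204%), and that in calcium beta subunit peaks in library 56 of chronic restraint 45 min (0.0875%, next 0.0857%).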

How the results depend on the processing

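The number of member peaks called was 0 in each comparison under 14 alternatives (scaling by total counts or DESeq2 size factors, no filter, the DESeq2 test, no batch term, the top-peak share as covariate, each batch left out, without library 45, females only, males only, gene bodies without extension), except for the averaged acute effect. That count was 2 with the top-peak share as covariate (Cacnb2 and Cacna1a, both lower at 45 min) and 2 in males only (Cacna1d higher and Cacna2d1 lower), in fits that called 1766 and 105 of all peaks; the cause was not tested. Summed per gene, 0 of 29 members were called in all 28 checks, each of 1 comparison under 1 alternative setting. Among the 5 members with the smallest p in each comparison no change reversed its sign: 508 values stayed on their side of the threshold and 2 passed it. The start or end peaks of 25 genes had 0 calls under 13 alternatives, and 14 of them changed sign at least once for the acute and 18 for the chronic change, all within 0.044 of 0 in the reported fit. Of the 29 peaks with the smallest acute p of each gene, 3 changed sign for the acute and 17 for the chronic change. Class medians moved by more than the spread between libraries in 12 cases, and in none was the cause tested. For auxiliary peaks the effect of chronic restraint at 0 min was 0.0064 with total count scaling, 0.0085 without batch 4, 0.0052 without replicate 45 of Handling 0 min and 0.0044 in males, from -0.0113. For females against males it was -0.0115 with total count scaling, from 0.01. The auxiliary interaction was -0.0343 without batch 4 and -0.0197 without replicate 45, from 0.0012, and the acute effect in chronically restrained mice was 0.0035 in females and -0.0297 in males, from -0.0135. For pore peaks the effect of chronic restraint at 45 min was 0.076 in females and -0.0003 in males, from 0.035, and the interaction was 0.0438 in females, from 0.0118. No paired analysis was possible because the animal numbers are not shared between groups. Intervals were widest for the interaction, where the 95% interval stayed within 1.25-fold for 15.2% of member peaks.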
